A study of Mus musculus with 8 samples.

Results

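Tnmd, Scx, Mkx, Thbs4, Comp, Chad, Cilp and Egr3 were taken by symbol as a list of tendon cell genes. They are 8 of the 24054 genes in an RNA-seq table of mouse soleus (SOL) muscle. MI4KO mice carry floxed Irf4 on both alleles and a Cre driven by Myl1, which is selective for skeletal muscle, so cells other than muscle fibers were not the target of the deletion. Flox mice are littermates with the same floxed Irf4 alleles and no Cre. All animals were male C57BL/6 mice, each was recorded on a high-fat diet, and 4 mice of each genotype were sequenced, with 1 poly(A) library per mouse. The study's text describes chow-fed mice for its metabolic tests and gives no diet for the sequenced ones, so the diet rests on the labels alone. The age of these mice was not given in the sources used here. Within a group, mouse 1 to mouse 4 follow the mouse numbers of the labels, from the smallest up.

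Tendon cells lie between collagen fibers and join muscle to bone. Scleraxis (Scx) and Mohawk (Mkx) are transcription factors that set and keep the tendon cell state, and tenomodulin (Tnmd) is a membrane protein of mature tendon cells. Thbs4, Comp, Chad and Cilp mainly make the matrix that organizes collagen. Egr3 is a zinc finger factor of the immediate early class and is not particular to tendon. A dissected muscle brings some tendon with it at both ends, and the level of these genes is therefore given mouse by mouse. In whole muscle, fewer tendon cells, less RNA per tendon cell and a change of RNA from other cells cannot be told apart.

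Values are TMM-normalized CPM, that is, reads on a gene brought to a common library size by TMM, the trimmed mean of M-values. The libraries held between 13417512 and 16384565 reads on genes, and the detection floor of 3 reads corresponded to values of 0.181 to 0.225. Irf4, the deleted gene, was at 0.686, 1.46, 1.58 and 1.68 in flox mice 1 to 4 and at 0.725, 0.840, 0.266 and 1.03 in MI4KO mice 1 to 4. Flox mouse 1 fell within the MI4KO range, and the log2 fold change of Irf4 was -0.45 (SE 0.20, unadjusted p = 0.0402, adjusted p = 1.0, limma). This is of value + 1, which understates the change of low genes. The MI4KO mean was 0.530 of the flox mean, and edgeR on whole reads gave a log2 fold change of -0.86 (unadjusted p = 0.0562). The paper reasoned that only part of the Irf4 RNA would be lost in whole muscle, where many nuclei lie outside fibers. A pair of libraries stood apart, in liver markers or in how often they were the highest. The summed level of 8 liver markers was 115 in flox mouse 1 and no more than 0.763 in any other mouse, and MI4KO mouse 3 was the highest of the 8 mice for 30.9% of the 11865 genes tested. Other mice were apart for Myh6, a myosin gene listed with muscle spindle genes. It was at 1451 in flox mouse 3, 1088.5 in MI4KO mouse 3 and 1045 in MI4KO mouse 4, and from 13.6 to 16.7 in the rest. The cause was not tested.

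Promoter sequences of Tnmd, Thbs4, Chad and Cilp, which were 4 of the 8 genes, were found in the RefSeq table for GRCm38.p6 and are shown because Scx acts through the E-box, written CANNTG, and IRF4 through repeats of GAAA spaced by 2 bases. Each window runs 5′ to 3′ on the strand of its gene from 250 bases before the start to 50 bases after it, and capitals mark E-boxes. Tnmd was read at chrX:133850758-133851057 on the plus strand, Thbs4 at chr13:92794769-92795068 on the minus strand, Chad at chr11:94564797-94565096 on the plus strand and Cilp at chr9:65264930-65265229 on the plus strand.
Tnmd: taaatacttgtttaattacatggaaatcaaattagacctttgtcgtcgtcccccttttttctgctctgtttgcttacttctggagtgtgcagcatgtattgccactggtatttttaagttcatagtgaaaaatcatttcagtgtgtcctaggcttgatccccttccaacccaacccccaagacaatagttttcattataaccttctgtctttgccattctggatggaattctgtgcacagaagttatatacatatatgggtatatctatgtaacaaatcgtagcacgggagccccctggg
Thbs4: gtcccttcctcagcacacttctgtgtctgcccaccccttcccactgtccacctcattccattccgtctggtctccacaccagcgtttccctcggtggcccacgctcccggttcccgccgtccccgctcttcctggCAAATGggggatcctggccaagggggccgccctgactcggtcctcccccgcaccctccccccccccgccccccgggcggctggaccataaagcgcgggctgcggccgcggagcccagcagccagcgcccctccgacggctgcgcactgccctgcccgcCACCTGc
Chad: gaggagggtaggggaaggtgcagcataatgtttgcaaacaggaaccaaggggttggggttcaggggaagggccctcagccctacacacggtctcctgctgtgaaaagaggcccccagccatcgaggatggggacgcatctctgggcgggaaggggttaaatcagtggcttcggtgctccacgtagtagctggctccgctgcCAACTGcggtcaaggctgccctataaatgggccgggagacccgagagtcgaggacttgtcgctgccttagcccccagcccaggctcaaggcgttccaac
Cilp: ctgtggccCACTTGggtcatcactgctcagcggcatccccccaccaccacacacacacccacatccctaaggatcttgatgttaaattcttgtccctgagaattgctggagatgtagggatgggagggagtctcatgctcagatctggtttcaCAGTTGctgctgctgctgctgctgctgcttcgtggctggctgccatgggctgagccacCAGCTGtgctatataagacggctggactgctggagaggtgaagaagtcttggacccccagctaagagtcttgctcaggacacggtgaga

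The window of Cilp held 3 E-boxes, that of Thbs4 held 2, that of Chad held 1 and that of Tnmd held 0. An E-box was present in 72.3% of 32851 promoter windows of 300 bases, searched on both strands. None of the 4 windows held GAAA, any 2 bases and GAAA again on either strand, and 3.44% of all windows did. The EGR motif GCGNGGGCG, present in 5.55% of all windows, was likewise in 0 of the 4. Chad alone among the 4 held TATAAA, which 13.6% of all windows held. These are matches of letters in a short window and not binding sites.

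The levels of the 8 genes fell into a higher and a lower set when each value was divided by exon length, from GENCODE M21 on GRCm38. Over the 8 mice, Thbs4 averaged 11.3 TMM-normalized CPM per kb of exon, Scx 8.38 and Cilp 7.82. The remaining 5 genes were lower, with Comp at 0.761, Tnmd at 0.653, Chad at 0.481, Egr3 at 0.195 and Mkx at 0.102 CPM per kb. The ranges over mice of Thbs4 (8.87 to 12.5), Scx (6.31 to 11.4) and Cilp (4.79 to 10.97) overlapped one another, as did those of Comp, Tnmd and Chad. No mouse of the higher set came below a mouse of the lower set. Summed without regard to length, the 8 genes came to between 67.1 and 93.4 CPM per mouse, whereas 10 muscle fiber markers such as Acta1 and Ckm came to between 104760 and 123750 CPM.

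**Figure D1:**
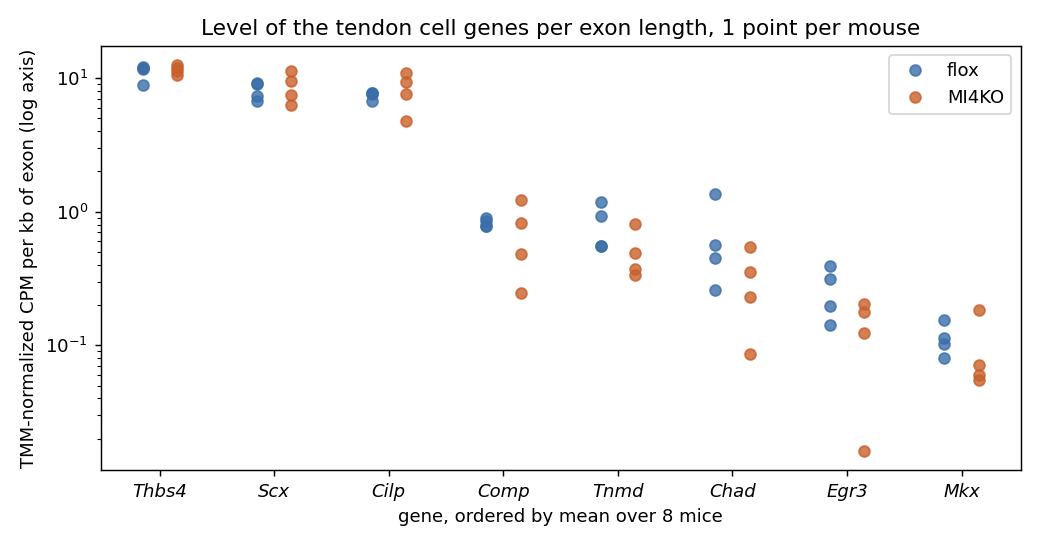
Each point is 1 mouse, the vertical axis is TMM-normalized CPM per kb of exon on a log scale, and genes are ordered by their mean over 8 mice. Thbs4, Scx and Cilp lie between 4.79 and 12.5 CPM per kb in every mouse, and the other 5 genes lie at 1.36 CPM per kb or below.

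None of the 8 genes passed the test between genotypes, and MI4KO and flox values overlapped for each of them. Of the 8 genes, 4 (Scx, Thbs4, Comp and Cilp) reached a value of 1 in 4 or more mice and entered the fit across genes, and 4 (Tnmd, Mkx, Chad and Egr3) did not. Among the 11865 genes of that limma fit, 0.0% had an adjusted p under 0.05, 399 had an unadjusted p under 0.05, and 26 (0.219%) had an unadjusted p under 0.05 with a fold of at least 1.5. edgeR and DESeq2 on whole reads also called 0 genes at an adjusted p under 0.05. Values of the groups did not overlap for 2.07% of these genes. Over the 17968 genes with a read, without the filter, 0.111% passed the same unadjusted limits and the groups did not overlap for 1.95%. Backgrounds this low leave little to read from a count of 0 among 8 genes.

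Scx, the basic helix-loop-helix factor of the tendon lineage, lies at chr15:76457452-76459458 on the plus strand of GRCm38. It was at 6.92, 7.63, 9.38 and 9.54 in flox mice 1 to 4 and at 9.87, 7.76, 11.8 and 6.53 in MI4KO mice 1 to 4, from 108 to 177 reads per mouse. Both the highest and the lowest mouse were MI4KO mice, and the flox values lay between them. The group means were 8.37 ± 1.30 and 8.98 ± 2.31 (SD, n = 4 each). The log2 fold change was 0.07 (SE 0.16, adjusted p = 1.0, limma), with a 95% interval of the fold, which like all limma intervals here is of value + 1, from 0.825 to 1.34. The sign of this change turned when flox mouse 1 was left out (-0.0048) or MI4KO mouse 3 was left out (-0.056). Scx lies within Bop1, a ribosome assembly gene on the opposite strand, and shares 0 exon bases with it. Bop1 was between 25.6 and 34.2 over the 8 mice, and the part of Bop1 reads in the Scx values was not tested.

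Mkx, a homeobox factor that promotes collagen expression in tendon, was the lowest of the 8 genes and rested on 3 to 11 reads per mouse. It was at 0.561, 0.416, 0.375 and 0.291 in flox mice and at 0.218, 0.259, 0.199 and 0.665 in MI4KO mice. MI4KO mice 1, 2 and 3 were below every flox mouse and MI4KO mouse 4 was above every flox mouse. The means were 0.411 ± 0.113 and 0.335 ± 0.221 (SD, n = 4 each), and an exact two-sided permutation test gave p = 0.486. The 95% counting intervals of all 8 mice overlapped. In the annotation, Mkx shares some exon sequence with the transcript AC148004.2 on the same strand, and reads of both cannot be told apart there.

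Egr3, a zinc finger factor of the immediate early class that is needed for muscle spindles, was at 0.811, 1.60, 1.28 and 0.583 in flox mice. In MI4KO mice it was at 0.508, 0.840, 0.0665 and 0.725, where the value of mouse 3 is 1 read. The lowest flox mouse came below MI4KO mice 2 and 4, so the groups overlapped, while the 2 highest values were of flox mice 2 and 3. The means were 1.07 ± 0.456 and 0.535 ± 0.341 (SD, n = 4 each; exact two-sided permutation p = 0.143). On log2(value + 1), which understates the change of low genes, the difference was -0.43, and limma without the filter gave a 95% interval of the fold of value + 1 from 0.548 to 1.0 with an unadjusted p of 0.0515 and an adjusted p of 0.988. edgeR on whole reads without the filter gave 0.521-fold (unadjusted p = 0.0959, adjusted p = 0.919).

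Tnmd, the membrane glycoprotein of mature tendon cells, lies at chrX:133850980-133865577 on the plus strand. It was at 0.748, 1.25, 0.750 and 1.60 in flox mice and at 0.508, 0.453, 0.665 and 1.09 in MI4KO mice, from 7 to 22 reads per mouse. MI4KO mice 1, 2 and 3 were below every flox mouse, and MI4KO mouse 4 was above flox mice 1 and 3. The means were 1.09 ± 0.417 and 0.678 ± 0.287 (SD, n = 4 each), a log2 difference of -0.31 with an exact two-sided permutation p of 0.143. In limma without the filter the 95% interval of the fold of value + 1 ran from 0.631 to 1.03, which understates the change of Tnmd itself, and edgeR on whole reads gave 0.642-fold (unadjusted p = 0.123, adjusted p = 0.919). The smallest p that 4 mice against 4 can give in the permutation test is 0.0286.

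Thbs4, a thrombospondin of tendon and of the myotendinous junction, lies at chr13:92751590-92794818 on the minus strand and was the highest of the 8 genes. It was at 38.7, 37.4, 28.4 and 38.1 in flox mice and at 37.7, 39.8, 33.4 and 35.96 in MI4KO mice, from 378 to 620 reads per mouse. Flox mouse 3 was low, and the other 7 mice lay between 33.4 and 39.8. The means were 35.6 ± 4.87 and 36.7 ± 2.73 (SD, n = 4 each), and the log2 fold change was 0.05 (SE 0.10, adjusted p = 1.0, limma). Its 95% interval, from 0.886-fold to 1.21-fold, was the narrowest of the 4 genes in the fit. Without flox mouse 3 the log2 fold change was -0.053.

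Comp, a thrombospondin that binds collagen and is abundant in tendon and cartilage, lies at chr8:70373558-70382066 on the plus strand. It was at 2.06, 2.15, 1.88 and 1.89 in flox mice and at 1.16, 2.97, 0.598 and 1.99 in MI4KO mice. The flox values were close together and the MI4KO values spread to both sides of them, over a range of 4.97-fold between mouse 3 and mouse 2. The coefficient of variation of Comp was 6.63% in flox mice, where counting alone would give 18.7%, and 61.5% in MI4KO mice, where counting alone would give 19.6%. The means were 1.99 ± 0.132 and 1.68 ± 1.03 (SD, n = 4 each), and the log2 fold change was -0.24 (SE 0.23, adjusted p = 1.0, limma; 95% interval 0.597-fold to 1.2-fold). It was -0.46 without MI4KO mouse 2 (unadjusted p = 0.0436, limma) and -0.02 without MI4KO mouse 3.

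Chad, chondroadherin, a leucine-rich repeat protein that binds collagen and cells, lies at chr11:94565047-94569127 on the plus strand, within Acsf2 on the opposite strand and sharing 0 exon bases with it. It was at 0.436, 2.29, 0.750 and 0.947 in flox mice and at 0.145, 0.388, 0.598 and 0.907 in MI4KO mice, where the value of mouse 1 is 2 reads. Flox mouse 2 was higher than any other mouse, and flox mice 1 and 3 lay among the MI4KO mice. The means were 1.11 ± 0.816 and 0.509 ± 0.323 (SD, n = 4 each; exact two-sided permutation p = 0.200). The difference on log2(value + 1) was -0.43, and without flox mouse 2 it was -0.19. edgeR on whole reads without the filter gave 0.478-fold (unadjusted p = 0.0776, adjusted p = 0.919).

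Cilp, cartilage intermediate layer protein, a matrix protein that binds TGF-beta1, lies at chr9:65265180-65280605 on the plus strand. It was at 31.8, 28.1, 31.7 and 32.2 in flox mice and at 31.3, 39.0, 19.9 and 45.6 in MI4KO mice, from 299 to 754 reads per mouse. MI4KO mice 2 and 4 were above every flox mouse, MI4KO mouse 3 was below every flox mouse, and MI4KO mouse 1 lay within the flox range. The 95% counting interval of MI4KO mouse 3 (17.7 to 22.3) did not touch that of MI4KO mouse 4 (42.4 to 48.9). The coefficient of variation was 6.20% in flox mice and 32.5% in MI4KO mice, beside 4.74% and 4.38% from counting alone. The means were 30.96 ± 1.92 and 33.96 ± 11.04 (SD, n = 4 each), and the log2 fold change was 0.07 (SE 0.19, adjusted p = 1.0, limma; 95% interval 0.789-fold to 1.40-fold). It was 0.30 without MI4KO mouse 3 (unadjusted p = 0.0176, limma, adjusted p = 0.969) and -0.089 without MI4KO mouse 4.

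**Figure D2:**
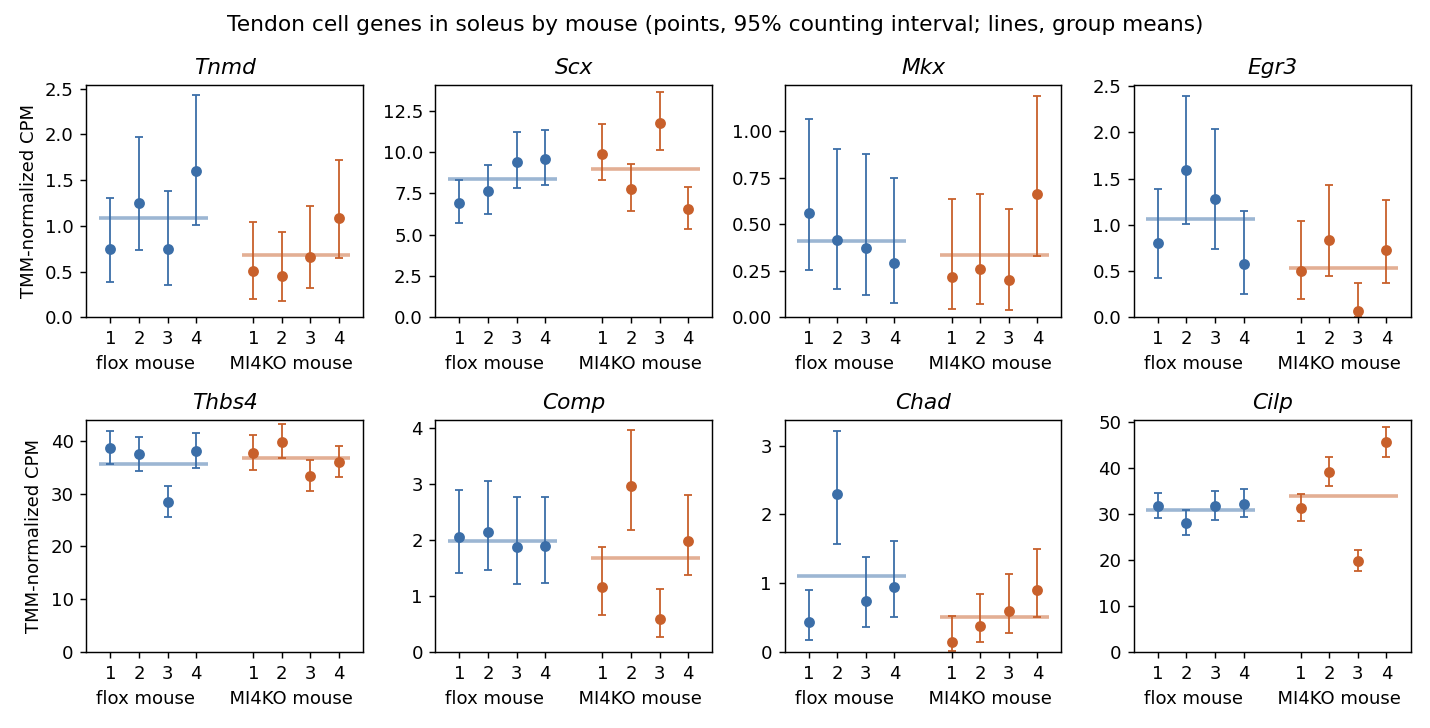
Each panel is 1 gene and each point 1 mouse in TMM-normalized CPM, with the exact 95% Poisson interval of its reads, which covers counting error only, and the group means as lines. The groups overlap in all 8 panels, and MI4KO mice spread from 0.598 to 2.97 for Comp and from 19.9 to 45.6 for Cilp around closely spaced flox mice.

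The 4 genes below the filter each had a lower mean in MI4KO mice, at 0.461 of the flox mean for Chad, 0.502 for Egr3, 0.624 for Tnmd and 0.815 for Mkx. Of the 4 genes in the fit, Comp was lower at 0.843 of the flox mean, and Thbs4, Scx and Cilp were higher at 1.03, 1.07 and 1.10. The mean log2 level over the 4 genes with a mean of at least 1 was 3.74 ± 0.051 in flox mice and 3.73 ± 0.207 in MI4KO mice (SD, n = 4 each), from 3.46 in MI4KO mouse 3 to 3.95 in MI4KO mouse 2. Over all 8 genes it was 2.32 ± 0.104 and 2.15 ± 0.179. These means are a description, and no test was made on them. The summed level ran from 74.5 to 85.2 in flox mice and from 67.1 to 93.4 in MI4KO mice.

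MI4KO mouse 3 was the lowest of the 8 mice for 4 of the 8 genes (Mkx, Comp, Cilp and Egr3) and the highest for Scx. Its Mkx value was 3 reads, as in MI4KO mouse 1, and its Egr3 value was 1 read. Of the 4 genes in the fit it was the lowest for 2 (Comp and Cilp), beside 13.3% of all 11865 genes tested. MI4KO mouse 3 was also the lowest for 11 of 27 tendon matrix genes, 5 of 13 muscle fibroblast markers and 4 of 7 Schwann cell markers. For endothelial markers this was 0 of 7. Being the lowest was not particular to MI4KO mouse 3, since MI4KO mouse 1 was the lowest for 19.0% of all genes tested. Of the tendon matrix, MI4KO mouse 1 was the lowest for Col1a1, Col1a2, Col3a1, Bgn and Fmod among others. It was also the lowest for every endothelial marker but Emcn. Without flox mouse 1 and MI4KO mouse 3 together, the log2 fold change was -0.13 for Scx, 0.0069 for Mkx, -0.01 for Comp and 0.31 for Cilp (unadjusted p = 0.0258, limma). For Tnmd, Chad and Egr3 it was -0.39, -0.63 and -0.32 without these 2 mice. The labels number the mice in a lower and a higher range, with 1 flox and 2 MI4KO mice in the lower range and 3 flox and 2 MI4KO mice in the higher. The flox mouse of the lower range is flox mouse 1, the library with the liver markers, so each difference there rests on it. The log2 difference had the same sign in both ranges for Tnmd (-0.24 and -0.22), Chad (-0.19 and -0.36), Egr3 (-0.12 and -0.64), Comp (-0.06 and -0.44) and Thbs4 (0.0038 and 0.01). It changed sign between the ranges for Scx (0.30 and -0.0013), Mkx (-0.33 and 0.06) and Cilp (0.13 and -0.02).

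**Figure D3:**
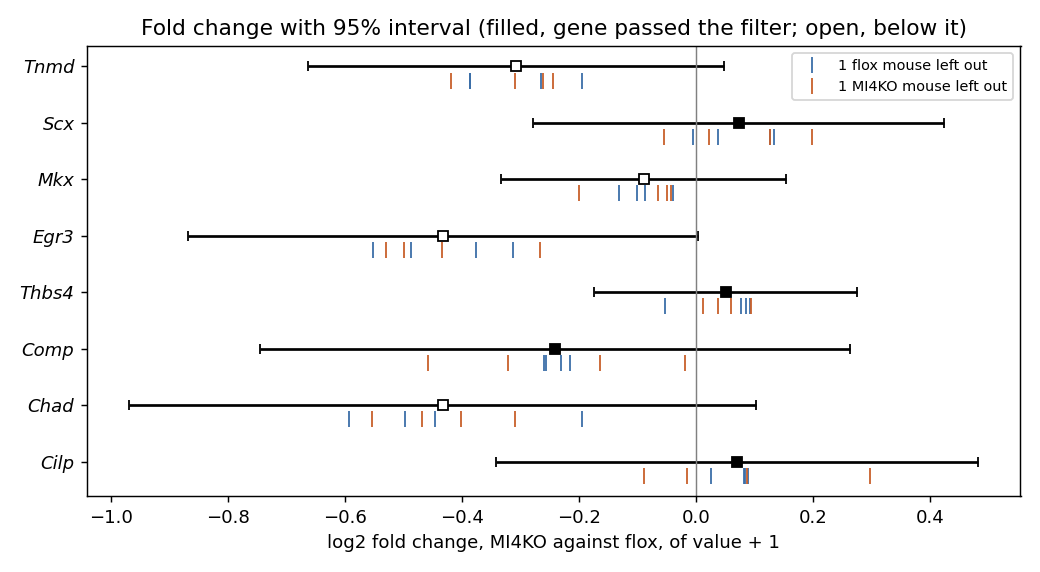
Squares are log2 fold changes of value + 1, MI4KO against flox, with 95% limma intervals over 8 mice, filled for genes in the fit with the filter and open for genes below it. Colored ticks are the same change with 1 mouse left out, and every interval includes 0, the upper end being 0.0035 for Egr3.

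Correlations between the genes from mouse to mouse ran in both directions. Of the 6 pairs among Scx, Thbs4, Comp and Cilp, Scx was inversely related to Comp (Pearson r = -0.77, exact permutation p = 0.0226, adjusted over 6 pairs 0.0847; Spearman rho = -0.74, exact permutation p = 0.0458, adjusted 0.265). Scx was also inversely related to Cilp (r = -0.75, exact permutation p = 0.0282, adjusted 0.0847; rho = -0.60, exact permutation p = 0.132, adjusted 0.265). Comp and Cilp ran in the same direction (r = 0.75, exact permutation p = 0.0429, adjusted 0.0859; rho = 0.50, exact permutation p = 0.216, adjusted 0.324).

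None of the pairs passed after adjustment. Without the 2 mice farthest from the median of the first gene, r was -0.65 for Scx and Comp, -0.08 for Scx and Cilp and 0.29 for Comp and Cilp, so the relations of Cilp rested on MI4KO mouse 3 and 1 further MI4KO mouse. With the group means removed, r was -0.77, -0.78 and 0.83. For Thbs4, r was -0.40 with Scx, 0.34 with Comp and 0.28 with Cilp (exact permutation p = 0.348, 0.348 and 0.434, and adjusted 0.418, 0.418 and 0.434). The rho values of Thbs4 with Scx, Comp and Cilp were -0.21, 0.62 and 0.43 (exact permutation p = 0.619, 0.115 and 0.299, and adjusted 0.619, 0.265 and 0.359), and r without the 2 mice farthest from the median was -0.41, 0.45 and -0.24.

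**Figure D4:**
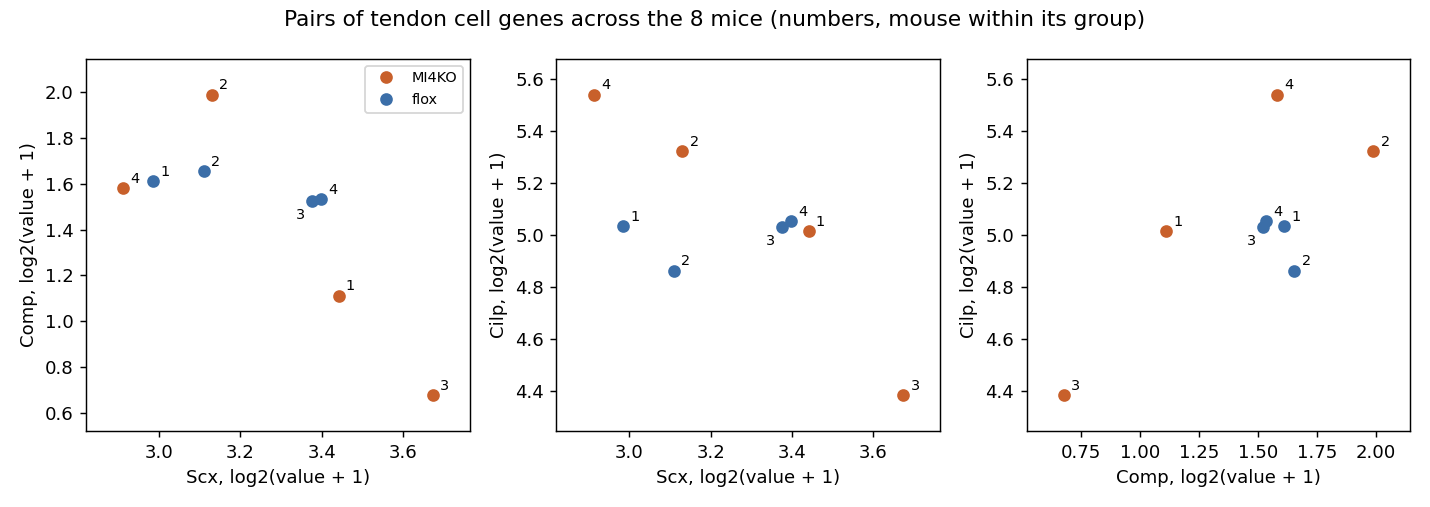
Each point is 1 mouse on log2(value + 1), numbered within its group, for Scx against Comp, Scx against Cilp and Comp against Cilp. MI4KO mouse 3 is the extreme point of every panel, with r of -0.77, -0.75 and 0.75 over the 8 mice.

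The genes whose pattern over the 8 mice was most like each of the 4 genes were taken by Pearson correlation on the log2 scale among 11864 others, as a description. For Scx these were Uqcr10, Taf10, Coq10a, Uqcc2 and Map1lc3a (r = 0.972 to 0.978), among which Uqcr10 and Uqcc2 serve the respiratory chain complex that oxidizes ubiquinol, and 112 genes had r of at least 0.9. For Comp they were Mgl2, Pcdh18, Cpne1, Efemp1 and Rad51d (r = 0.949 to 0.978), for Cilp Bambi, Rint1, Lepr, Cog3 and Slc6a18 (r = 0.950 to 0.971), and for Thbs4 Cml1, Ass1, Vcpip1, Aldh18a1 and Mterf1a (r = 0.885 to 0.912). At least 0.9 was reached by 25 genes for Comp, 22 for Cilp and 3 for Thbs4. Among the genes most like the mean level of the 4 genes were Myoc, Pamr1, Postn, Trib3, Zbtb14, Smoc2, Rnd3, Abca6 and Serpina3c (r = 0.924 to 0.969), in which Postn encodes the matrix protein periostin and Smoc2 is a muscle fibroblast marker.

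Scx stood on the other side from tendon matrix genes in these libraries. Its median r with 27 tendon matrix genes was -0.37 and with 13 muscle fibroblast markers -0.50, beside 0.19 with all genes tested and 0.46 with 10 muscle fiber markers. The median r of Comp was 0.54 with the tendon matrix genes and 0.52 with the fibroblast markers, beside -0.23 with all genes tested. For Cilp these medians were 0.43, 0.44 and -0.21, and for Thbs4 they were 0.10, 0.20 and -0.23. All of these correlations share the same 8 libraries and their scaling, and all include MI4KO mouse 3.

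Other genes of tendon were examined beside these 8. Of 32 genes of the tendon matrix, 27 passed the filter on low values, 24 of them had a negative log2 fold change and the median was -0.20, beside -0.01 over all genes tested. A single one passed the unadjusted limits and 0 passed at an adjusted p under 0.05. Fmod, fibromodulin, which binds collagen and controls fibril width, was at 7.67, 20.3, 11.1 and 13.99 in flox mice and at 4.57, 4.98, 10.2 and 11.3 in MI4KO mice.

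Flox mice 1 and 3 fell within the MI4KO range of Fmod, so the groups overlapped. The means of Fmod were 13.3 ± 5.37 and 7.77 ± 3.49 (SD, n = 4 each), with a log2 fold change of -0.72 (SE 0.29, unadjusted p = 0.0302, adjusted p = 1.0, limma). The unadjusted p of Fmod was 0.111 without flox mouse 2, 0.0669 without flox mouse 4, 0.0976 without MI4KO mouse 1 and 0.0932 without MI4KO mouse 2. It was 0.0074 without flox mouse 1, 0.0097 without MI4KO mouse 3 and 0.0102 without MI4KO mouse 4, and without flox mouse 1 and MI4KO mouse 3 together the log2 fold change of Fmod was -1.08 (unadjusted p = 0.0016, adjusted p = 0.872, limma). With mouse number range as a covariate Fmod was at -0.48 (unadjusted p = 0.0098, limma), and DESeq2 on whole reads gave -0.77 (unadjusted p = 0.0767). Col1a1, a chain of the main collagen of tendon, had a log2 fold change of -0.39 (SE 0.19, unadjusted p = 0.0672, limma), and Col1a2, Col3a1, Bgn and Dcn had -0.25, -0.20, -0.23 and -0.01.

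The muscle fibroblast markers went the same way as the tendon matrix genes, with 11 of 13 negative and a median of -0.15. So did markers of other cell types that lie between muscle fibers, with 7 of 7 endothelial markers negative (median -0.19), 5 of 6 adipocyte markers (median -0.33) and 5 of 7 Schwann cell markers (median -0.13), whereas 1 of 6 macrophage markers was negative (median 0.09). Among all of these, Cfd, the adipocyte gene for adipsin, alone passed the unadjusted limits, with a log2 fold change of -0.65, and it did not pass them without MI4KO mouse 1, without MI4KO mouse 3 or with edgeR on whole reads. The mean log2 level of the fibroblast markers was lowest in MI4KO mouse 1, at 4.11, followed by MI4KO mouse 3 at 4.15. The tendon matrix level was lowest in the same mice, at 3.80 and 3.93. Without flox mouse 1 and MI4KO mouse 3 together, 22 of the 27 tendon matrix genes were negative with a median of -0.15, and 9 of the 13 fibroblast markers with a median of -0.10. Without MI4KO mouse 1, 20 of the 27 were negative with a median of -0.13, and 0 passed the limits. The part of fibroblasts and of these other cell types in the tendon matrix values was not tested, and the summed fibroblast markers ran from 692 to 874 in flox mice and from 590.3 to 831 in MI4KO mice.

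Among 19 regulators and signals of tendon, 14 passed the filter, 9 of them were negative and the median log2 fold change was -0.07. None passed the limits. Tgfb2, a ligand that induces Scx in the embryo, was at 24.1 ± 2.09 in flox mice and 18.5 ± 4.39 in MI4KO mice (log2 fold change -0.39, SE 0.15, unadjusted p = 0.0229, adjusted p = 1.0, limma). Its lowest mouse was MI4KO mouse 3 at 12.3, and without that mouse the log2 fold change was -0.21 (unadjusted p = 0.0386, limma). Tgfb1, Tgfb3, Tgfbr1, Tgfbr2 and Smad3 had log2 fold changes of -0.07, -0.06, 0.14, 0.05 and 0.23. Gdf6 and Gdf7, growth factors of the tendon lineage, were at or near 0.

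The relatives of Egr3 and Cilp were low or variable as well. Egr2, which like Egr1 promotes tendon collagen genes, was at 0.935, 1.11, 0.825 and 0.874 in flox mice and at 0.290, 0.646, 0.532 and 0.483 in MI4KO mice. All 4 MI4KO mice were below all 4 flox mice, and the exact two-sided permutation p was 0.0286, the smallest the design allows. Egr2 was below the filter, and limma without it gave a log2 fold change of -0.38 (SE 0.09, unadjusted p = 0.0022, adjusted p = 0.988). Of 46 other list genes below the filter, Egr2 and Col9a3 were the 2 whose groups did not overlap, beside 1.95% of all genes with a read.

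Egr1 was at 31.0, 12.6, 23.6 and 8.82 in flox mice and at 2.97, 30.2, 4.25 and 13.6 in MI4KO mice, with a log2 fold change of -0.87 (SE 0.55, unadjusted p = 0.141, limma). The Egr1 values of both groups overlapped over most of their range. Its log2 fold change was -0.43 without MI4KO mouse 1, -1.42 (unadjusted p = 0.0085, limma) without MI4KO mouse 2 and -0.29 without flox mouse 1 and MI4KO mouse 3 together, and edgeR on whole reads gave -0.53. Of 18 immediate early genes, the class of genes that respond first to a stimulus, 14 passed the filter, 11 were negative with a median of -0.22, and 0 passed the limits. Without MI4KO mouse 1, 8 of the 14 were negative with a median of -0.08, and without MI4KO mouse 3, 13 were negative with a median of -0.29 and Nr4a1 passed the limits as lower. Ier2 came nearest, at 13.1 ± 1.59 and 9.84 ± 1.93 (log2 fold change -0.39, SE 0.14, unadjusted p = 0.0134, adjusted p = 1.0, limma). Cilp2, the paralogue of Cilp, was at 0.880 ± 0.185 in flox mice and 0.503 ± 0.151 in MI4KO mice (SD, n = 4 each; exact two-sided permutation p = 0.0571), and flox mouse 1 at 0.623 lay below MI4KO mouse 2 at 0.646. Thbs1, Thbs2 and Thbs3, relatives of Thbs4 and Comp, had log2 fold changes of 0.01, -0.22 and -0.24.

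Markers of cartilage, where Comp, Chad and Cilp are also expressed, were close to absent apart from Sox9 and Cytl1. Of 13 cartilage markers in the table, Sox9 and Cytl1 passed the filter, with log2 fold changes of 0.03 and -0.13, and Matn1 and Ucma had no read in any mouse. Acan and Col2a1, which define cartilage, were at no more than 0.312 and 0.218 in any mouse. Col9a3 was at 0 in all flox mice and at 0.0725, 0.0646, 0.0665 and 0.181 in MI4KO mice, none of which is above 3 reads, so no fold is given. The summed cartilage markers were 14.5 to 21.98 in flox mice, with MI4KO mice from 14.9 to 21.3.

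Genes of the myotendinous junction, the zone where muscle fibers attach to tendon, included 8 that all passed the filter, of which 7 were negative with a median log2 fold change of -0.10, and 0 passed the limits. Col22a1, a collagen found at this junction, was at 15.5, 15.1, 14.6 and 15.2 in flox mice and at 12.04, 11.9, 12.2 and 17.5 in MI4KO mice. MI4KO mice 1, 2 and 3 were below every flox mouse and MI4KO mouse 4 was above them, and the log2 fold change was -0.17 (SE 0.12, unadjusted p = 0.167, limma). Ankrd1, a stretch-responsive protein of muscle, was at 3.79 in MI4KO mouse 3, with the other 7 mice from 16.2 to 21.3.

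**Figure D5:**
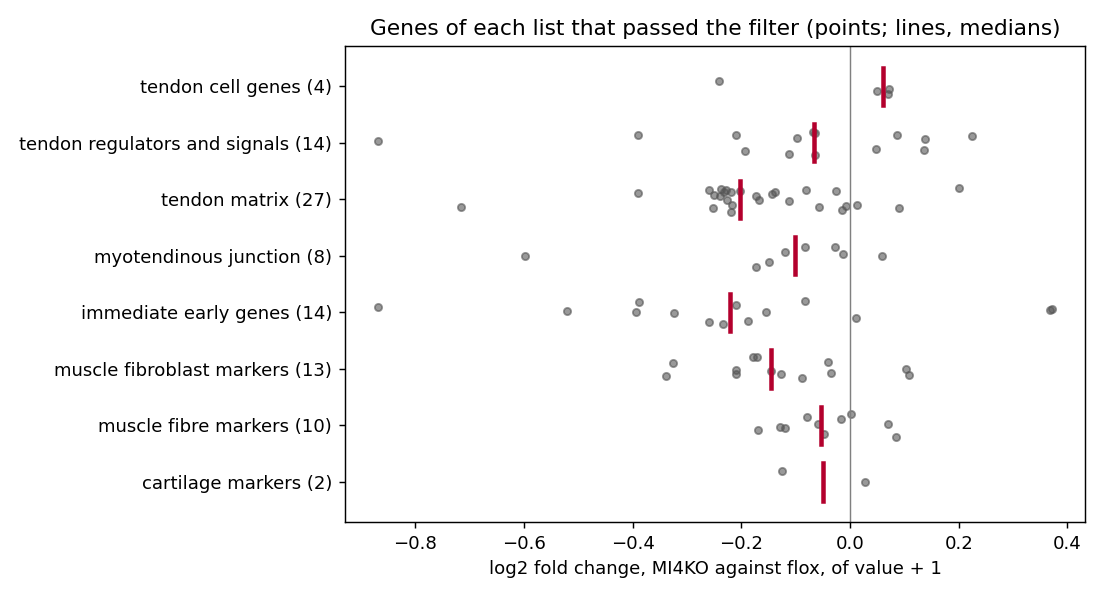
Each point is a gene of the named list that passed the filter, placed by its log2 fold change of value + 1, MI4KO against flox, with the list median as a line and the number of genes in parentheses. The medians are 0.06 for the 4 tendon cell genes that passed the filter, -0.20 for the tendon matrix, -0.22 for the immediate early genes and -0.05 for the muscle fiber markers. Tnmd, Mkx, Chad and Egr3 were below the filter and are not drawn. Their log2 differences were -0.31, -0.09, -0.43 and -0.43.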

How the data were processed

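SOL muscle of 4 MI4KO and 4 flox mice was analysed, grouped by the labels. The libraries were stranded and made from poly(A) RNA. Per the labels and the paper's methods, the authors mapped reads with Bowtie2 2.1.0, estimated expression with RSEM 1.2.15 on mm10 (GRCm38) and normalized by TMM, and the deposited signal is 1 TMM-normalized CPM value per gene and mouse. The strand setting of the counting is not given in the sources used here. The authors also deposited fold changes, p-values and FDR of their own comparison, which were not used.

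Each value was a whole multiple of 1 step per mouse (100% of non-zero values, within 0.1 of a read), so reads could be recovered, between 13417512 and 16384565 per mouse. limma 3.58.1 (R 4.3.3) with a mean-variance trend was fitted on log2(value + 1) to the 11865 genes that reached a value of 1 in 4 or more mice, with Benjamini-Hochberg adjustment. Genes below the filter were given an exact permutation test, two-sided, in scipy 1.17.1. Intervals of values are exact Poisson intervals and cover counting error only. The alternatives were other pseudocounts, no filter, other scalings, limma without trend or with robust estimation, mouse number range as a covariate, each mouse left out, and edgeR 4.0.16 and DESeq2 1.42.0 on recovered reads. edgeR without the filter and the removal of flox mouse 1 and MI4KO mouse 3 together were added after seeing the data. On simulated counts limma called 100 of 100 genes changed by 4-fold, 92 of 100 changed by 2-fold and 16 of 11675 unchanged genes. The changed genes were drawn only from those with a mean of at least 2 CPM. Comp averaged 1.84 CPM over the mice, and Tnmd, Chad, Egr3 and Mkx averaged less. Recovery of a change at such low levels was therefore not simulated.

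The tendon cell genes, the other lists and the rule for named genes (Irf4, all list genes, and the genes most correlated with each tendon cell gene) were chosen with earlier results of these data known. Bop1, Acsf2 and AC148004.2 were named for their overlap with 3 of the genes, and Hist2h3c2 and Jmjd7-pla2g4b after their values were seen. Of the genes most correlated with the mean level, 1 is not reported here. Positions are from GENCODE M21 and promoters from RefSeq.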

Additional observations from a re-analysis of the deposited data

Results flagged for a closer look

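Among 46 groups of 4 mice examined, 3 held a mouse set apart from the others by Dixon's criterion, and chance alone sets apart about 1 in 20 groups. Gaps and ranges were taken on log2(value + 1), whereas the values given are CPM. Mkx was at 0.665 in MI4KO mouse 4, which is 11 reads beside 3 or 4 reads in the other MI4KO mice, and the gap to the next mouse was 0.853 of the range of the group. Thbs4 was at 28.4 in flox mouse 3, with a gap of 0.892 of the range to the next flox mouse. Cilp was at 28.1 in flox mouse 2, with a gap of 0.893 of the range, although all 4 flox values of Cilp lay between 28.1 and 32.2.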

How the results depend on the processing

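Depth limits 4 of the genes, which have 94 reads over the 8 mice for Egr3, 95 for Chad, 104 for Tnmd and 45 for Mkx. Scx, Thbs4, Comp and Cilp did not pass an adjusted p under 0.05 under any alternative run. The 4 genes below the filter could not pass their permutation test with mice left out, since its smallest p is 0.0571 for 3 mice against 4 and 0.1 for 3 against 3. The count of genes at that threshold was 0 and became 1 (Jmjd7-pla2g4b) without flox mouse 1 and MI4KO mouse 3 together. With 1 mouse left out it ranged from 0 to 1, and Hist2h3c2 was the gene called without MI4KO mouse 2. The count at an unadjusted p under 0.05 and a fold of 1.5 was 26 and became 41 and 71 with pseudocounts of 0.5 and 0.1, 13 with robust estimation, 41 without flox mouse 1 and MI4KO mouse 3 together, 65 with edgeR, 307 with edgeR without the filter and 51 with DESeq2. With 1 mouse left out this count ranged from 19 to 58, the highest without MI4KO mouse 4.

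With 1 mouse left out, the log2 fold change ranged from -0.056 to 0.20 for Scx, from -0.053 to 0.094 for Thbs4 and from -0.089 to 0.30 for Cilp. The values with the other sign were -0.0048 (without flox mouse 1) and -0.056 (without MI4KO mouse 3) for Scx, -0.053 (without flox mouse 3) for Thbs4, and -0.02 (without MI4KO mouse 2) and -0.089 (without MI4KO mouse 4) for Cilp. Without flox mouse 1 and MI4KO mouse 3 together, Scx was at -0.13 and Mkx at 0.0069. The mean log2 level over the genes, MI4KO minus flox, was -0.01 over the 4 higher genes and -0.16 over all 8. Over the 4 higher genes it became 0.0071 and 0.029 under the other scalings and 0.012 without flox mouse 4. It became 0.079 without MI4KO mouse 3 and 0.076 without flox mouse 1 and MI4KO mouse 3 together, and it stayed negative in the remaining settings. The correlation of Thbs4 and Cilp was 0.28 and became -0.24 without the 2 mice farthest from the median. The cause of these shifts was not tested. Of the 206 values recomputed, 187 kept their direction and side of the threshold or, for counts and the mean level, stayed within limits. The limits were 1.5-fold for a count above 0 and 0.15, the SD within groups, for the mean level. A mean level that changed sign within this SD was thus counted as kept. Correlations were judged by sign and threshold alone, so Scx with Cilp at -0.75 and -0.08 was counted as kept. No tendon cell gene passed at first, so its side of the threshold could change only by passing. No paired analysis was possible because the labels give the groups no shared replicate numbers.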
